A study of Mus musculus with 7 samples.

Results

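SCAN and BTB zinc finger genes encode transcription factors that pair a protein interaction domain at one end with C2H2 zinc fingers, which bind DNA. The 69 members described here are the genes of the deposited table whose symbol starts with Zscan (16 genes), Zkscan (11) or Zbtb (42), out of 18951 symbols in all. The family was chosen by symbol after the normalized counts of Zkscan8 had been seen to be lower in Nlrp2-null pools, so the null against WT values of Zkscan8 are given as a description, with no test. The symbol rule also took in 2 genes that are not zinc finger genes, Zbtb8os and Zbtb11os1, where os stands for opposite strand. Zbtb8os encodes archease, a cofactor of the tRNA ligase, and Zbtb11os1 is annotated as an antisense transcript.

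The SCAN domain lets zinc finger proteins pair with each other, and the K in Zkscan stands for a KRAB domain. In many zinc finger proteins a KRAB domain recruits the corepressor TRIM28 and with it the histone methyltransferase SETDB1. Whether the Zkscan proteins do so was not tested here. The BTB domain forms dimers and recruits NCOR and SIN3 corepressors. Known members act in germ cells and early embryos. ZSCAN4 marks the mouse embryo after its first cleavage and a rare state of embryonic stem cells. ZSCAN10 supports pluripotency in embryonic stem cells, and ZBTB16, also called PLZF, maintains spermatogonial stem cells. An ovulated oocyte makes almost no new RNA, so that its transcripts are those stored during growth.

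The samples were pools of denuded ovulated oocytes from C57BL/6 females aged 4 weeks, 4 pools from females lacking Nlrp2 (genotype Nlrp2-Null) and 3 from wild-type (WT) females. NLRP2 is a maternal effect protein stored in the egg, and the series asked whether its loss alters the oocyte transcriptome. About 150 oocytes went into a pool, collected from 3 to 4 females that shared a genotype and stripped of cumulus cells with hyaluronidase, and the RNA was amplified before sequencing. The labels do not say how the null allele was made or whether the females were littermates.

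Values are normalized counts, that is, read counts scaled by each pool's size factor. The recovered reads came to 71795562 to 79476532 in the null pools and 71073973 to 96330083 in the WT pools. Nlrp2 itself averaged 45.3 ± 49.8 normalized counts in null pools and 17483 ± 2378 in WT pools (SD, n = 4 and 3). All 12 oocyte markers were in the table, with sums of 859343 to 988592 in null and 830593 to 890931 in WT pools. Of 25 cumulus and granulosa markers 24 were in the table, none of them at 0 in every pool, and their sums came to 55083 to 75453 in null and 45196 to 66362 in WT pools. The sums were highest in null 3 (72489) and null 4 (75453), followed by WT 1 (66362). A large part of that rise was Hsd3b1, at 17336, 20602 and 19152 in these pools and at most 10545 in the other pools. Oviduct epithelium markers summed to 29236 to 36532 in null and 20740 to 30562 in WT pools, most of it Cdh1, a cadherin that oocytes also express. Blood cell markers summed to 199.9 to 2664 in null and 287.0 to 615.2 in WT pools. In pooled material a smaller number of cells of a type and less RNA per cell cannot be told apart.

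The promoters of the members on which the results turn are printed first. They come from RefSeq on GRCm38.p6, each with 250 bases before and 50 after the annotated start, printed 5′ to 3′ in the gene's direction. The promoter of Zkscan8 is shown because its values led to the choice of the family, and those of Zbtb11 and Zbtb8os because DESeq2 called these 2 between genotypes. That of Zscan4c stands for a set of near-identical paralogs. Capitals mark matches on either strand, and none of the marked stretches overlap. The ETS core was searched as CGGAAGT. For the GC box the letters were GGGCGG. The CRE, a cyclic AMP response element, was TGACGTCA. The CCAAT box was searched by the letters of its name. For the TATA box the search used TATAAA.
Zkscan8 (chr13:21531065-21531364, minus strand): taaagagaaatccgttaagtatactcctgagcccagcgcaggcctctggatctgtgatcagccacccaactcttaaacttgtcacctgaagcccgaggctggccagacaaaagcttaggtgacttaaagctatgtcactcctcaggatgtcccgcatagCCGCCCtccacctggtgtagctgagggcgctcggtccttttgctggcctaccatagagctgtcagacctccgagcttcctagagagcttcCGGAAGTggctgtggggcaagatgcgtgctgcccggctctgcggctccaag
Zbtb11 (chr16:55973554-55973853, plus strand): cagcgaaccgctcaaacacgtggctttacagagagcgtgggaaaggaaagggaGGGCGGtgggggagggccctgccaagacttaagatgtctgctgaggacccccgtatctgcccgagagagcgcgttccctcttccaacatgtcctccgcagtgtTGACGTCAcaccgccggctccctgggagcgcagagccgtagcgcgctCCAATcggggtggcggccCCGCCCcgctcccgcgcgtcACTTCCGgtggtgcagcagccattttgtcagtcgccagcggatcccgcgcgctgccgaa
Zbtb8os (chr4:129335718-129336017, plus strand): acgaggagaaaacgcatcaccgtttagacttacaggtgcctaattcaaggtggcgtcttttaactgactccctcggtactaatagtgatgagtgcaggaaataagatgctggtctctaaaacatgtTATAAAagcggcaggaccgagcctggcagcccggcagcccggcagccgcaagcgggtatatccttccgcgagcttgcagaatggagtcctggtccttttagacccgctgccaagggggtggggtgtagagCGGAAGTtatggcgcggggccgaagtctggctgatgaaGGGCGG
Zscan4c (chr7:11005495-11005794, plus strand): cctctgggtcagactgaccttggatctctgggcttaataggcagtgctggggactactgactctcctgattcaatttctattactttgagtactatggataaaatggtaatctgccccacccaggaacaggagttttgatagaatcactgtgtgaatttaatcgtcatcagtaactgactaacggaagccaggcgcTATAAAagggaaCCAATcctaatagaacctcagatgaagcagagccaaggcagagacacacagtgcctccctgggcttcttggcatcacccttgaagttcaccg

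The promoter table matched 57 of the 69 members by symbol, with 1 start taken per gene. The ETS core stood in 17 of the 57 member promoters (29.8%), among them those of Zkscan8, Zbtb11 and Zbtb8os, and in 8.60% of 17491 promoters of protein-coding genes. A GC box stood in 54.4% of the member promoters and in 46.3% of the coding ones. The CRE stood in 4 member promoters (7.02%, against 2.34% of coding ones), one of them Zbtb11. A CCAAT box stood in 40.4% of member and 39.0% of coding promoters, and a TATA box in 10.5% and 13.3%. Member promoters had a median GC content of 59.3% and coding promoters one of 56.3%. These are matches of letters and not measured sites.

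The proteins differ in their number of fingers. The longest annotated coding sequence held 1 to 14 C2H2 motifs in the Zbtb genes (median 4), 1 to 14 in the Zscan genes (median 6) and 4 to 12 in the Zkscan genes (median 7). Zkscan8 held 9 and Zbtb11 held 12. Zbtb8os held 0.

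Most members were detected in the oocyte pools, over a wide range of levels. Which cells of a pool the reads of low members came from was not tested. In WT pools 29 of the 69 averaged at least 1000 normalized counts and 4 averaged under 10. A filter at a mean of 10 over all pools left 66 for testing, and Zkscan2, Zbtb3 and Zbtb8a fell below it. Zkscan2 had 15, 0, 0 and 13 reads in null pools 1 to 4 and 0 in every WT pool, where 0 reads allow up to 2.47 to 3.16 normalized counts at 3 reads a pool. Zbtb3 had 0, 14, 0 and 2 reads in null pools and 1, 0 and 0 in WT pools, and Zbtb8a had 0, 0, 1 and 1 against 11, 0 and 3.

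Levels of different genes were compared per kb of exon, in normalized counts per kb of the merged exons of GENCODE M21. The median of the 40 Zbtb zinc finger genes was 131 per kb in WT pools, that of the 16 Zscan genes 80.7 and that of the 11 Zkscan genes 642. These medians include Zbtb3, Zbtb8a and Zkscan2, which fell below the filter. The median over all genes that passed the filter was 141, so the group medians cannot be set directly against it. Of the 66 tested members 32 lay above 141 per kb in WT pools. Zkscan16 stood first, with 2273 to 2791 per kb in null pools and 2320 to 3030 in WT pools, and no other member reached its lowest pool. Zscan21, also known as Zipro1, followed with 1394 to 1698 in null and 1541 to 1902 in WT pools. Its range overlapped those of the next genes in the order, Zbtb10 (1565 to 1767 in null, 1420 to 1722 in WT pools) and Zbtb33 (1174 to 1351 in null, 1432 to 1718 in WT pools). Zbtb44 had 1160 to 1318 per kb in null and 1386 to 1408 in WT pools. Zkscan6, Zscan12, Zbtb21, Zkscan5, Zkscan17 and Zkscan1 came next, with WT means of 1092, 1044, 1012, 956, 922 and 914 per kb, and these neighbours overlapped in their WT pools. Zkscan8 was 15th of the 69 in WT pools, at 442 per kb in null and 642 in WT pools.

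A few members with known roles elsewhere, all low except Zbtb33, were picked after their values were seen, and they stand for no wider pattern. Zbtb16 had 1.05 to 32.5 normalized counts in null and 0 to 76.9 in WT pools. Zbtb7a, the LRF repressor of blood cells, averaged 113 ± 43.1 in null and 146 ± 83.5 in WT pools. Of the 3 Kaiso-type genes, whose proteins bind methylated CpG sites, Zbtb33 stood at 1286 per kb in null and 1563 in WT pools, while Zbtb38 stood at 33.8 and 23.4 and Zbtb4 at 11.9 and 12.6.

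**Figure D1:**
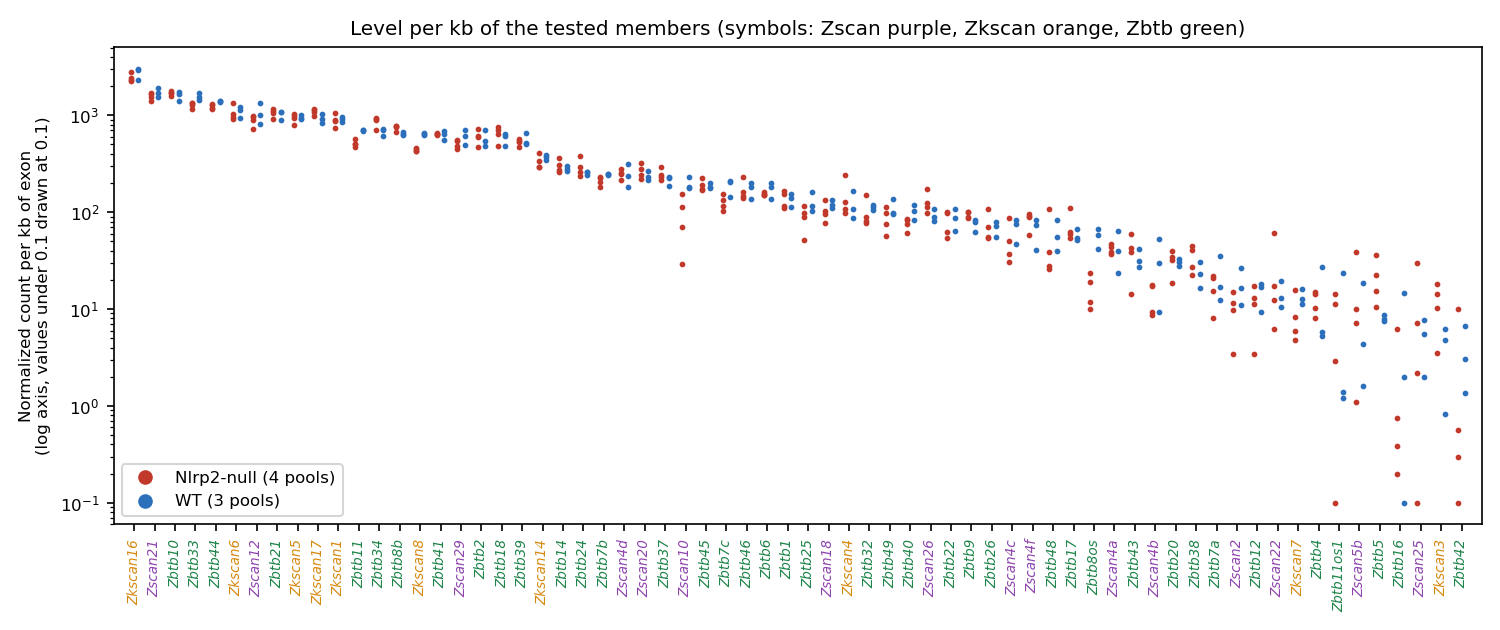
Normalized count per kb of exon (log axis) for the 66 tested members, ordered by their WT mean, with a red point for each of 4 Nlrp2-null pools and a blue point for each of 3 WT pools. Zkscan16 leads at 2447 per kb in null and 2773 in WT pools, and the scatter between pools grows towards the low members on the right.

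Zkscan8 is a KRAB and SCAN zinc finger gene on chromosome 13 (21513222 to 21531120, minus strand, GRCm38), and none of its exons overlaps another annotated gene. Null pools 1 to 4 held 3856, 3787, 3976 and 4130 normalized counts, and WT pools 1 to 3 held 5599, 5729 and 5820. The highest null pool lay well below the lowest WT pool, and both groups were tight. The means were 3937 ± 150 in null and 5716 ± 111 in WT pools (SD, n = 4 and 3), a ratio of 0.689. The labels number the libraries in a lower range (null 1, null 2, WT 1 and WT 2) and a higher one (null 3, null 4 and WT 3), and the log2 difference was -0.57 inside the lower and -0.52 inside the higher range. Leaving out null 3 and null 4, where the cumulus sums peaked, it was -0.58.

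Zkscan8 was left out of the test counts, and no test verdict is given for it. Of the 65 other tested members limma called 0 and edgeR also 0, while DESeq2 called 2 (3.08%), Zbtb11 and Zbtb8os, both at lower values in null pools. The shares over all 15071 genes tested were 0.0664% for limma (10 genes), 0.0464% for edgeR and 1.33% for DESeq2, of which 0.564% at lower values in null pools. The limma count of 10 ran from 2 without null 3 to 16 without null 1. It was 4 without null 4 or WT 2 and 5 without WT 3. In limma 7 of the 65 (10.8%) had an unadjusted p under 0.05, 5 at lower and 2 at higher values in null pools, beside 10.2% of all genes, 4.93% lower and 5.28% higher. Because a difference in this contrast led to the choice of the family, nothing is read from these counts.

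The median log2 fold change, null minus WT, was -0.04 over the 66 members and 0.01 over all genes tested. It was -0.16 for the 16 Zscan, -0.05 for the 10 tested Zkscan (Zkscan8 included) and -0.01 for the 40 tested Zbtb symbols. Without Zkscan8, negative values numbered 36 of 65 (55.4%), beside 49.3% of all genes. Scaling every pool to an equal median moved all genes by -0.06 and the members' median to -0.10. Leaving out Zkscan8, the 27 tested members with a mean of at least 1000 had log2 fold changes from -0.45 to 0.34 with a median standard error of 0.13, and for 24 of them the 95% limma interval lay within 1.5-fold in either direction. The 14 members with a mean under 100 had a median standard error of 0.851, and for 0 of them did the interval lie within that range.

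**Figure D2:**
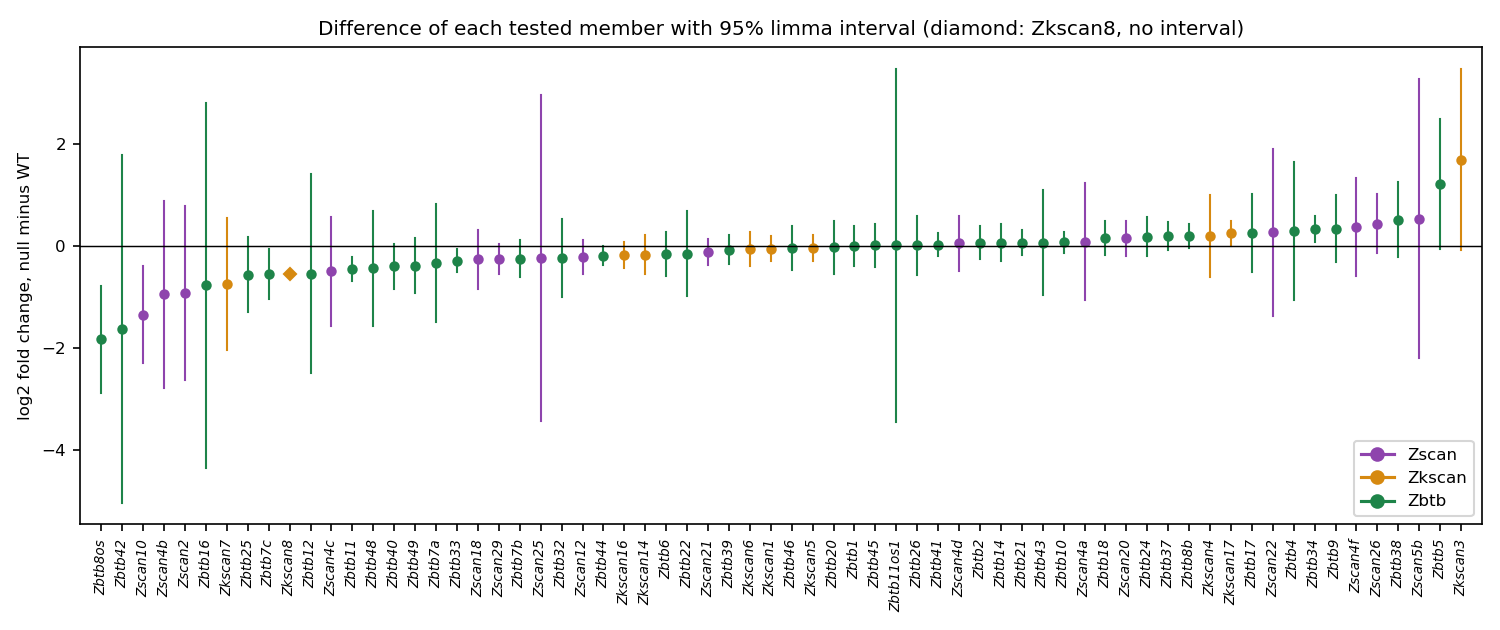
The log2 fold change, null minus WT, of each of the 66 tested members in rising order, with the 95% limma interval as a vertical line and colour for the symbol group. Zkscan8 is a diamond without an interval, and the values run from -1.83 for Zbtb8os to 1.70 for Zkscan3.

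Without Zkscan8, the null and WT pools did not overlap in 8 of 65 tested members (12.3%), 6 with null below WT and 2 with null above, beside 9.91% of all genes tested (5.16% below and 4.74% above), and nothing is read from these counts either. They were Zbtb11, Zbtb8os, Zscan10, Zbtb33, Zbtb44 and Zbtb7b on the lower side, and Zbtb5 and Zbtb9 on the higher side.

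Zbtb11 encodes a BTB zinc finger protein that neutrophils need to form in zebrafish. It lies on chromosome 16 (55973883 to 56008913, plus strand). Its normalized counts were 3735, 4242, 3737 and 3531 in null pools 1 to 4 and 5107, 5209 and 5281 in WT pools. All null pools lay below all WT pools, with means of 3811 ± 303 and 5199 ± 87.4. The log2 fold change was -0.45 (SE 0.112), a fold of 0.731 with a 95% interval of 0.620 to 0.863. The adjusted p was 0.174 in limma, 0.183 in edgeR and 0.0102 in DESeq2. Among the lower-numbered libraries alone the log2 difference was -0.37, and among the higher-numbered ones -0.54. Exons of Zbtb11 overlap Zbtb11os1 and Pcnp on the opposite strand and Gm28037 on its own. The use of strand in the authors' counting is not stated in the labels or headers. Zbtb11os1 had 19.5, 15.4, 3.92 and 0 normalized counts in null pools and 31.6, 1.90 and 1.65 in WT pools, far below Zbtb11.

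Zbtb8os lies on chromosome 4 (129335695 to 129354547, plus strand), where its end overlaps the end of Zbtb8a on the opposite strand. Null pools 1 to 4 held 85.6, 106.5, 45.1 and 53.4 normalized counts, and WT pools held 186, 262 and 304. The highest null pool was again below the lowest WT pool. The log2 fold change was -1.83 (SE 0.497), a fold of 0.282 with a 95% interval of 0.136 to 0.585, and the adjusted p was 0.219 in limma, 0.240 in edgeR and 0.0340 in DESeq2. It was -1.20 among the lower-numbered libraries and -2.61 among the higher-numbered ones. Zbtb8a, with at most 11 reads in a pool, was too low to compare. Zbtb8b averaged 4817 ± 347 in null and 4193 ± 116 in WT pools.

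The other members without overlap did not pass in limma, edgeR or DESeq2. Zscan10, on chromosome 17, had 201, 320, 83.4 and 445 normalized counts in null pools and 509, 662 and 525 in WT pools. Null 4 lay close to the WT pools and null 3 far below them (log2 fold change -1.34, SE 0.452, limma adjusted p = 0.328). Zbtb33, which encodes Kaiso and lies on chromosome X, had 6920, 6013, 6562 and 6845 in null pools and 7879, 8802 and 7335 in WT pools. The gap between the groups was smaller than the spread within either of them, and the limma estimate was -0.28 on the log2 scale (SE 0.105, adjusted p = 0.379), with -0.37 among the lower-numbered and -0.13 among the higher-numbered libraries. Exons of Zbtb33 overlap Tmem255a on the opposite strand. Zbtb44, one of the most abundant members, had 12315, 11897, 10833 and 11004 in null pools and 13156, 12951 and 13099 in WT pools, with a log2 fold change of -0.18 (SE 0.0889, limma adjusted p = 0.501). Zbtb7b, known as ThPOK in T cells, averaged 1180 ± 123 in null and 1389 ± 17.3 in WT pools.

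On the higher side, Zbtb5 had 58.5, 87.0, 127 and 201 normalized counts in null pools 1 to 4 and 42.1, 48.5 and 44.5 in WT pools. Null 3 and null 4 were highest, as they were for the cumulus marker sum. That sum was higher in WT 1 (66362) than in null 1 (55488) and null 2 (55083), while Zbtb5 was lowest in WT 1. The part of cumulus RNA in the Zbtb5 difference was not tested. The limma estimate was 1.23 on the log2 scale (SE 0.603, adjusted p = 0.509), with 0.65 among the lower-numbered and 1.82 among the higher-numbered libraries. Zbtb9 averaged 330 ± 25.7 in null and 261 ± 38.9 in WT pools. Zbtb34 had a smaller p than either, at 5895, 4652, 6174 and 6032 in null and 4611, 4066 and 4788 in WT pools, where null 2 fell inside the WT range (log2 fold change 0.34, SE 0.124, limma adjusted p = 0.377).

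**Figure D3:**
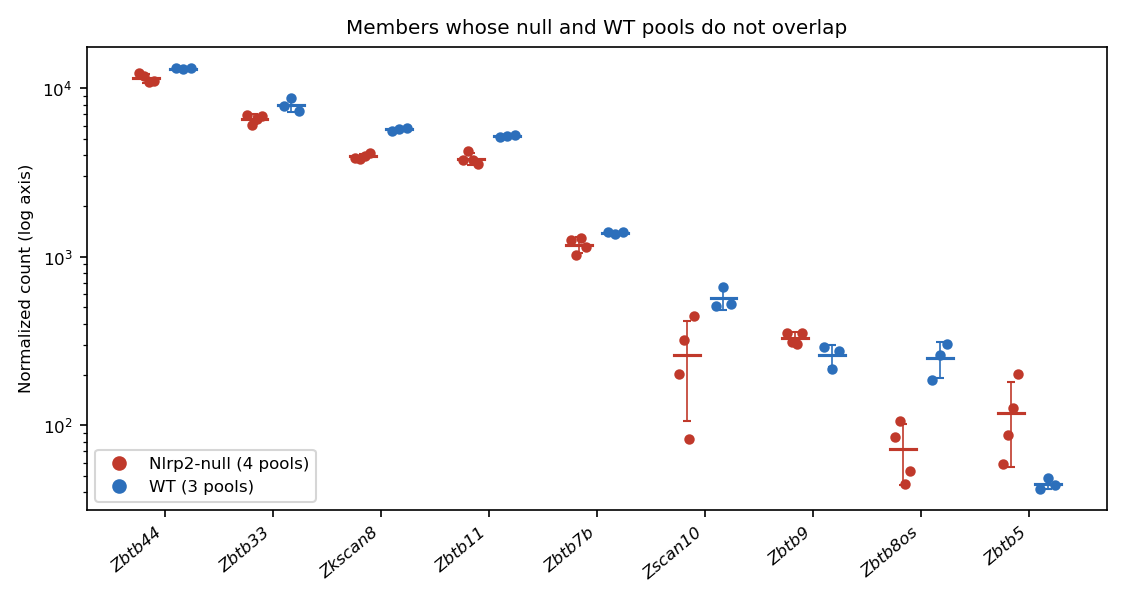
Normalized count (log axis) of the 9 tested members whose groups do not overlap, Zkscan8 among them, with each Nlrp2-null pool in red and each WT pool in blue, the mean as a bar and the SD as a whisker. The Zkscan8 pools lie between 3787 and 4130 in null and between 5599 and 5820 in WT, and Zbtb5 and Zbtb9 are the 2 with null above WT.

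The other Zkscan genes showed no such gap. Zkscan1 averaged 7622 ± 1145 in null and 7803 ± 424 in WT pools, and Zkscan5 averaged 3863 ± 413 and 3934 ± 210. Zkscan16, the most abundant per kb, averaged 6838 ± 657 in null and 7748 ± 1099 in WT pools (log2 fold change -0.17, SE 0.118). Zkscan17 had 4978, 5244, 4500 and 5327 in null pools and 3784, 4703 and 4167 in WT pools, with null 3 inside the WT range (0.25, SE 0.118, limma adjusted p = 0.488). Zkscan6 averaged 2505 ± 441 in null and 2590 ± 348 in WT pools, and Zkscan14 averaged 1201 ± 198 and 1338 ± 88.8. The low Zkscan7 averaged 63.1 ± 35.6 in null and 96.2 ± 17.9 in WT pools.

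Zkscan8 sits at one end of a cluster of 5 members on chromosome 13 (21362820 to 21531120) beside the main histone gene cluster, and in the other members of the cluster the null and WT pools overlapped. Zscan12 had 4465, 4851, 4877 and 3651 in null pools and 4027, 6634 and 5011 in WT pools, with WT 1 below 3 of the null pools. Zkscan3, known in human cells as a repressor of autophagy genes, had 28.2, 114, 145 and 82.7 in null pools and 37.9, 6.65 and 49.4 in WT pools. Null 1 lay among the WT pools and the other null pools above them, with a log2 fold change of 1.70 (SE 0.838, limma adjusted p = 0.512). It moved with single pools and was 0.85 without WT 2 and 2.21 without WT 3. Zscan26 averaged 556 ± 140 in null and 404 ± 59.3 in WT pools, and Zkscan4 averaged 346 ± 163 and 289 ± 98.3. Their log2 fold changes were 0.44 (SE 0.272) and 0.21 (SE 0.378), and that of Zkscan4 was negative without null 3 and without null 3 and null 4. Gpx6, the gene just before the cluster, averaged 3216 in null and 2703 in WT pools.

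The Zscan4 genes form an array on chromosome 7. In their coding sequences Zscan4c and Zscan4f were identical at 99.6% of 1518 bases, and Zscan4d was identical to either at 97.7%, so reads may be split among them and their single levels are uncertain. Their promoters are close as well: that of Zscan4d, moved by 11 bases, matched the printed Zscan4c promoter at 281 of 289 bases. The TATA and CCAAT boxes marked there also stood in the promoters of Zscan4b, Zscan4d and Zscan4f. Summed over the 5 paralogs of the table, null pools 1 to 4 held 1062, 949, 793 and 1054 normalized counts and WT pools 977, 750 and 1250. The groups overlapped, with means of 964 ± 126 in null and 992 ± 250 in WT pools. Zscan4d carried most of it, at 565 ± 62.1 in null and 555 ± 153 in WT pools. Zscan4f averaged 164 ± 34.2 in null and 129 ± 43.7 in WT pools, Zscan4c 117 ± 58.4 and 157 ± 43.9, Zscan4a, annotated as a pseudogene, 94.97 ± 10.9 and 96.0 ± 45.7, and Zscan4b 23.9 ± 8.90 and 55.5 ± 39.6. None of the 5 had an unadjusted limma p under 0.05, and edgeR and DESeq2 called 0 of them.

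**Figure D4:**
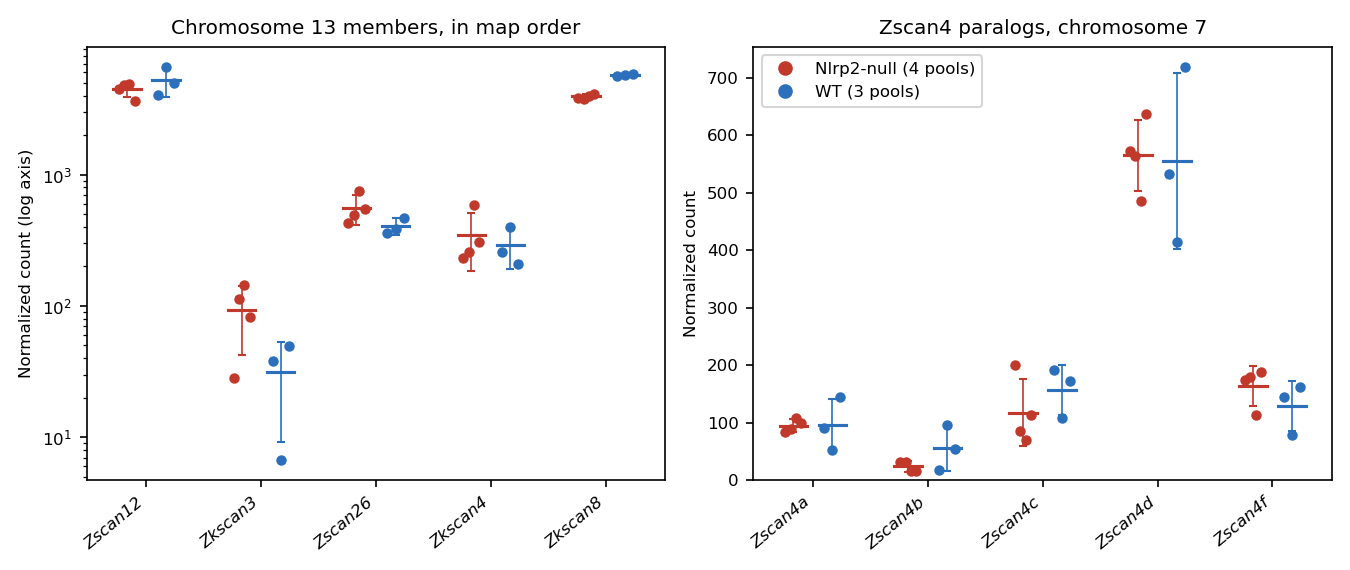
Normalized counts of 2 gene clusters, Nlrp2-null pools in red and WT pools in blue, with the mean as a bar and the SD as a whisker. On the left (log axis) are the 5 chromosome 13 members in map order, of which Zkscan8 is the one with separate groups; on the right (linear axis) are the 5 Zscan4 paralogs, with Zscan4d near 565 in null and 555 in WT pools.

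Among the remaining abundant members, Zscan21 averaged 5040 ± 448 in null and 5461 ± 582 in WT pools, Zscan29 averaged 3625 ± 359 and 4341 ± 761, and Zscan20 averaged 2225 ± 386 and 1978 ± 219. Zbtb10 averaged 12492 ± 635 in null and 11840 ± 1170 in WT pools, and Zbtb21 averaged 6741 ± 686 and 6410 ± 646. For all 5 the groups overlapped.

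Genes related to the family or to its domains were set beside it. Of 14 tested SCAN genes with other symbols limma called 0, edgeR 0 and DESeq2 0. Of the 14, 2 had an unadjusted limma p under 0.05, beside 10.2% of all genes tested. Their median log2 fold change was -0.16, beside 0.01 over all genes, and nothing particular to the list is read from these values. Zfp397 averaged 922 ± 167 in null and 571 ± 48.0 in WT pools (0.68, SE 0.219, limma adjusted p = 0.301), with all null pools above all WT pools, and the imprinted gene Peg3 averaged 3055 ± 349 and 2344 ± 409 (0.39, SE 0.149, limma adjusted p = 0.390). Of 8 BTB zinc finger genes with other symbols none was called by any of the 3 tools, none had an unadjusted limma p under 0.05, and the median was 0.06; Patz1 averaged 6685 ± 536 in null and 5983 ± 586 in WT pools, and Bcl6b 18.5 ± 23.3 and 7.71 ± 6.67.

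Of 18 corepressor and partner genes limma called 0 (2 with an unadjusted p under 0.05), edgeR 0 and DESeq2 1, beside the 10.2% of all genes with such a p and the 1.33% that DESeq2 called. Fold changes were negative for 15 of the 18, with a median of -0.11, beside 49.3% of all genes and a median of 0.01. In 3 of the 18 all null pools lay below all WT pools, beside 5.16% of all genes, and nothing particular to the list is read from these counts. The 1 was Cbx1, which encodes the heterochromatin protein HP1 beta, at 3496 ± 226 in null and 4652 ± 496 in WT pools (log2 fold change -0.41, SE 0.120, adjusted p = 0.252 in limma and 0.0497 in DESeq2). Sin3b, a corepressor scaffold, averaged 2441 ± 302 in null and 3197 ± 98.3 in WT pools (-0.40, SE 0.135, limma adjusted p = 0.332). Trim28, which many KRAB domains recruit, averaged 8491 ± 248 in null and 9135 ± 398 in WT pools (-0.11, SE 0.0921), with all null pools below all WT pools. In the list around Zscan4, of 7 tested genes none was called by any of the 3 tools and none had an unadjusted limma p under 0.05; Tcstv1 averaged 570 ± 128 in null and 397 ± 81.3 in WT pools and Tcstv3 averaged 95.3 ± 62.7 and 42.6 ± 37.9.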

How the data were processed

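The signal used was the authors' normalized count for each gene symbol in each pool, scaled by DESeq2 size factors, per the file headers and names. Each value was a whole multiple of its pool's step within 0.01, so whole reads were recovered for 100% of values. A second table (18430 transcripts, without gene names for the members) and its 6 columns of pool values were not used. Per the submitters' processing notes, STAR 2.5.0a, TopHat2 2.0.9, featureCounts 1.5.0-p1, HTSeq, DESeq2 1.22.2, DESeq and HOMER were used, with the builds GRCm38 and mm10. Which tool made which table, and whether strand was counted, is not given there. Another annotated gene overlaps an exon of 25 of the 69 members, lying on the other strand for 21 and on the member's own strand for 8.

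The members and lists were chosen with earlier results of these data known. Groups came from the labels. limma 3.58.1 (R 4.3.3) with a variance trend was run on log2(normalized count + 1), with no covariate (null minus WT), for the 15071 genes whose mean reached 10, with a call at a Benjamini-Hochberg adjusted p under 0.05 over all of them. For low genes such fold changes can be larger or smaller than those of DESeq2. They were -1.62 in limma and -0.45 in DESeq2 for Zbtb42, and 1.23 and 1.39 for Zbtb5. edgeR 4.0.16 and DESeq2 1.42.0 on the recovered reads were alternatives, as were other pseudocounts, filters and scaling, a covariate for the range of library numbers, a replicate block and leaving out pools. DESeq2 gave no adjusted p for 2080 genes, 6 members among them, and these stayed NA. All 3 tools were tested on simulated data. Pools of a group differed by more than sampling noise (chi-square over its degrees of freedom 36.6 or more for every pair). Each pool was 1 replicate, so p-values set the difference between groups against the spread between pools. Amplified reads are not independent molecules, so limits set by reads hold for counting error alone.

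The named genes were Zkscan8, every Zkscan and Zscan4 gene, the 5 highest per kb of each symbol group, up to 8 further members in each direction with no overlap between groups and a mean of at least 50, the 3 with the smallest p in each direction, any member called by a tool, and the 2 with the smallest p of each other list. In the marker lists those were Dazl and Gdf9 (oocyte), Inhbb and Fst (cumulus), Cdh1 and Krt8 (oviduct) and Cd68 and Adgre1 (blood), whose values are in the closing section. Exon lengths, overlaps and coding sequences came from GENCODE M21 (GRCm38).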

Additional observations from a re-analysis of the deposited data

How the results depend on the processing

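The median log2 fold change of the tested members was -0.04. It was -0.10 with equal medians in every pool, -0.10 with the replicate block and -0.10 without null 3 and null 4 (chosen after seeing the data), and it ran from -0.1043 to -0.0419 when each pool was left out. The log2 fold change of Zkscan8 was -0.60 with equal medians, where all genes moved by -0.06, and lay between -0.60 and -0.52 over 17 alternatives. The count of genes called, 10, was 6 with equal medians, 200 with DESeq2, 1 with the replicate block and 0 in limma without null 3 and null 4 (1080 with an unadjusted p under 0.05), and it ran from 2 to 16 when each pool was left out. With Zkscan8 left out, the count of family members called in limma, 0, stayed 0 in each alternative limma fit and with edgeR. It was 2 with DESeq2, Zbtb11 and Zbtb8os. The labels do not say whether the replicate numbers pair the pools. Correlations of same-numbered pools, after removing group means, were -0.163, 0.019 and -0.012, and so few pools cannot show whether they were paired. The causes of the moves between fits were not tested. Of the named members other than Zkscan8, 2 changed their side of the threshold in any alternative, Zbtb11 (log2 fold change -0.51 to -0.39) and Zbtb8os (-2.04 to -1.36), both with DESeq2. Members with a mean under 100 had a median standard error of 0.851, against 0.13 for those of at least 1000.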

Other observations

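Of the 12 oocyte markers, Dazl, an RNA-binding translational activator, averaged 32252 ± 1463 normalized counts in null and 42830 ± 3705 in WT pools (log2 fold change -0.41, SE 0.0820, adjusted p = 0.0826 in limma and 0.000593 in DESeq2), and the growth factor gene Gdf9 averaged 253831 ± 27901 and 219677 ± 16500. Among 22 tested cumulus and granulosa markers limma and edgeR called 0 (5 with an unadjusted limma p under 0.05) and DESeq2 called 1. That was Inhbb, at 340 ± 346 in null and 19.4 ± 14.5 in WT pools. Fold changes were positive for 19 of the 22, and their median was 0.35. Over all genes tested 10.2% had an unadjusted limma p under 0.05, and DESeq2 called 1.33%. Fold changes were negative for 49.3% of all genes, with a median of 0.01. Fst averaged 2671 ± 1244 in null and 1156 ± 434 in WT pools. Among 7 tested oviduct markers limma, edgeR and DESeq2 called 0 (3 with an unadjusted limma p under 0.05), with Cdh1 at 31147 ± 3722 in null and 24668 ± 4948 in WT pools and Krt8 at 303 ± 273 and 87.8 ± 43.1. Among 5 tested blood cell markers limma, edgeR and DESeq2 called 0 (0 with an unadjusted limma p under 0.05), with Cd68 at 131 ± 32.3 in null and 214 ± 33.4 in WT pools and Adgre1 at 18.7 ± 18.9 and 3.73 ± 3.69.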
